A study of Mus musculus with 12 samples.

Results

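Extinction was set against conditioning in 4 of the 12 amygdala RNA-seq libraries of this study, those of fear-extinguished and fear-conditioned mice of the C57BL/6 strain (B6). No measured value enters the rule, which takes by their labels the extinction libraries from 2 nuclei, the basolateral (BLA) and the central (CeA) amygdala, against the conditioned libraries of those nuclei, paired by region. The groups are male wild-type B6 mice after fear extinction (Ext, 1 BLA and 1 CeA library) and male wild-type B6 mice after fear conditioning (FC, 1 BLA and 1 CeA library). The whole series also holds 2 libraries of naive B6 mice and 6 of the strain 129S1/SvImJ (S1), which is poor at extinguishing fear, and its stated aim was to find genes tied to that impairment. None of the labels gives the number of mice behind a library, the time from training to dissection, or whether the BLA and CeA of a group came from the same mice.

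In fear conditioning an animal learns that a cue predicts a shock, and in extinction it learns, over repeated cues without shock, that the cue has become safe. The BLA, a cortex-like nucleus of mostly glutamatergic neurons, stores the cue association, and its output reaches the CeA, a striatum-like nucleus of GABAergic neurons that drives freezing. Extinction is known to need NMDA receptors, new gene expression in the BLA and inhibition onto CeA output neurons, so immediate early genes and the genes of glutamate and GABA transmission are the ones usually followed.

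Values are CPM, read counts of a gene's transcripts summed and scaled to library size by edgeR's TMM method, and a difference is past the threshold when its Benjamini-Hochberg adjusted p from edgeR's quasi-likelihood test is under 0.05. The 4 libraries held between 45117479 and 59091734 counts, with 17287 to 17526 genes detected in each. Each group is 1 library per region, so the BLA and CeA pairs stand in for replicates, and p-values measure the spread of these libraries around an additive model and not the spread between mice. The extinction libraries were deposited in a different table from the conditioned and naive ones, so the condition and the table cannot be told apart. One measure that moved with the table was Rn45s, the ribosomal RNA precursor: it took 0.0307% and 0.0538% of the counts of the Ext BLA and Ext CeA libraries, against 0.332% and 0.867% in FC BLA and FC CeA. In S1 it took 0.0453% and 0.0502% in the Ext libraries and 0.154% and 1.71% in the FC libraries, so every extinction library lay below every library of the other table. The fitted Rn45s difference in B6 was -3.77 ± 0.74 on the log2 scale (SE), with an edgeR adjusted p of 0.499.

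The regions matched their labels. Slc17a7, the vesicular glutamate transporter of cortical-type neurons, had 1740 CPM in Ext BLA and 28.3 CPM in Ext CeA, and 1754 CPM in FC BLA and 36.3 CPM in FC CeA. Prkcd, a kinase that marks a class of CeA neurons, ran the other way, with 8.73 CPM in Ext BLA and 183 CPM in Ext CeA, and 8.09 and 226 CPM in the FC libraries of those regions. The 20 BLA excitatory markers summed to 5144 and 2706 CPM in Ext BLA and Ext CeA, against 5237 and 2585 CPM in FC. The 20 CeA markers summed to 1202 and 5863 CPM in Ext BLA and Ext CeA, against 1095 and 5873 CPM in FC. Both sums were therefore close between the conditions of a region and far apart between regions. In whole tissue, fewer cells of a type and less RNA per cell cannot be told apart.

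No gene was past the threshold. Of 16523 genes tested, 0 (0%) had an adjusted p under 0.05 in edgeR for Ext minus FC in B6, and 662 genes (4.01%) had an unadjusted p under 0.05, 306 higher (1.85%) and 356 lower (2.15%). DESeq2 on the same genes called 9 higher and 38 lower, and a fit of the 4 libraries alone called 1 higher and 3 lower. Single libraries moved the count: without Ext CeA 1 gene was called higher and 52 lower, and without Ext BLA 4 higher and 13 lower. Beside these, FC minus naive in B6, which stays within 1 table and shares the FC libraries, also had 0 calls (0%), with 338 genes (2.05%) at an unadjusted p under 0.05, 147 higher (0.89%) and 191 lower (1.16%). Ext minus naive in B6 had 1 call (0.00605%), Grin2b, which fell, and 805 genes (4.87%) at an unadjusted p under 0.05, 262 higher (1.59%) and 543 lower (3.29%).

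The extinction differences of BLA and CeA were not alike across genes. Across the 13926 genes with a mean of at least 1 CPM in the 4 libraries, the Spearman correlation between the Ext minus FC change in BLA and that in CeA was -0.05, and 47.1% of the genes had the same sign in both. These values are across genes, which are not independent replicates. In S1 the same correlation was 0.67 with 77.5% of the same sign, and B6 BLA correlated with S1 BLA at 0.65, while B6 CeA correlated with S1 CeA at 0.08. The B6 CeA pair thus differed from the other pairs, which resembled each other. By size, 53 genes were at least 2-fold higher and 183 at least 2-fold lower in B6 BLA, and 52 higher and 114 lower in B6 CeA. At least 2-fold higher in both were 4 genes (0.0287%), which is 7.55% of the BLA set, beside 52 of all 13926 genes higher in CeA. At least 2-fold lower in both were 29 genes (0.208%), which is 15.9% of the BLA set, beside 114 of all 13926 genes lower in CeA. These are 7.69% and 25.4% of the CeA sets. Both overlaps were thus greater shares than those over all genes. At least 2-fold the opposite way in CeA were 8 of the 53 genes higher in BLA and 7 of the 183 lower.

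**Figure D1:**
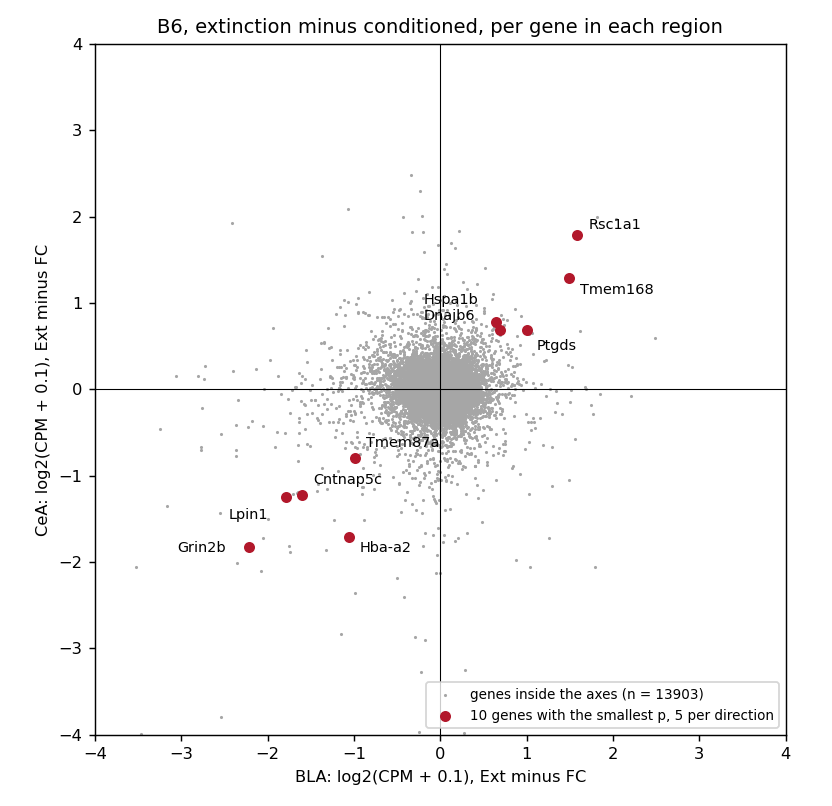
Each grey point is 1 gene with a mean of at least 1 CPM over the 4 B6 Ext and FC libraries (13903 of 13926 lie inside the axes), placed by its Ext minus FC change in BLA (horizontal) and CeA (vertical), both on the log2(CPM + 0.1) scale. The cloud shows no common slope (Spearman -0.05), and the 10 genes in red, 5 higher and 5 lower, are those with the smallest p among genes of the same sign in both regions.

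The change also ran with transcript length, in opposite directions in the regions. With the genes cut into 4 equal groups by transcript length, the median change in B6 BLA was 0.135 (log2) in the group of at most 1890 bases and -0.18 in the group of over 4437 bases. In B6 CeA the medians of those groups were -0.03 and 0.05. The Spearman correlation of change with length was -0.52 in B6 BLA and 0.15 in B6 CeA, against -0.59 in S1 BLA and -0.55 in S1 CeA. A trend also appeared within 1 table, since FC minus naive in B6 had correlations of -0.38 in BLA and 0.20 in CeA, and those pairs share the FC libraries. GC content, known for 97.9% of the genes, correlated with the B6 change at 0.29 in BLA and 0.14 in CeA. For FC minus naive in B6, within 1 table, it correlated at -0.21 in BLA and 0.31 in CeA. With the length trend removed from each library, the correlation between the BLA and CeA changes was 0.05, against -0.05 as counted. The part of library preparation in these trends was not tested.

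**Figure D2:**
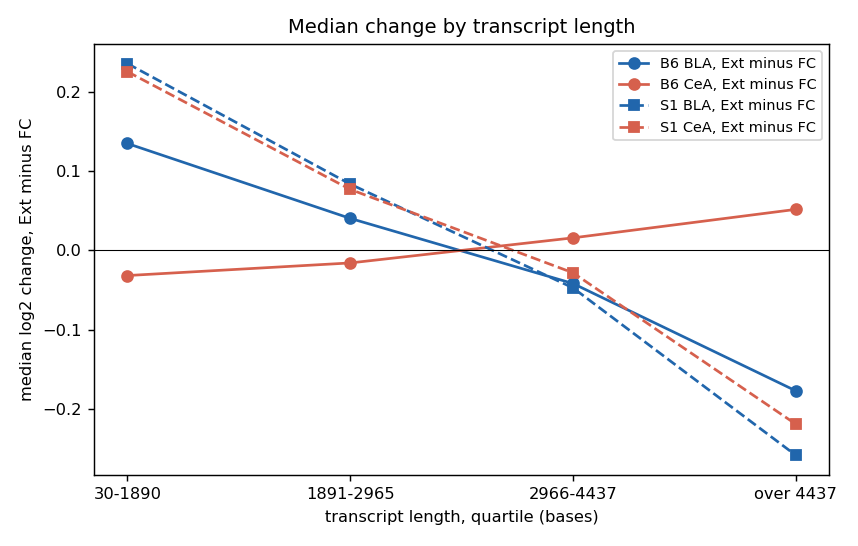
Median Ext minus FC change (log2, vertical) in 4 equal groups of genes by transcript length in bases (horizontal), for B6 (circles, solid lines) and S1 (squares, dashed lines). B6 BLA and both S1 pairs slope down, and B6 CeA slopes slightly up.

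The 5 genes with the smallest p among those lower in Ext in both regions included a receptor subunit central to extinction. Grin2b, the GluN2B subunit of the NMDA receptor (mm10 chr6:135729805-136173511), had 2.62 CPM in Ext BLA and 2.01 CPM in Ext CeA, against 12.5 CPM in FC BLA and 7.38 CPM in FC CeA. The naive libraries had 22.7 and 12.6 CPM, so the Ext libraries were the lowest of the B6 libraries in each region and FC lay between. The fitted difference was -2.07 ± 0.20 (log2, SE), with an edgeR adjusted p of 0.0721. In S1, Grin2b fell by 3.59 on the log2 scale with an adjusted p of 0.002.

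Tmem87a, a membrane protein of the Golgi (chr2:120355309-120404116), had 19.6 and 25.7 CPM in Ext BLA and Ext CeA, against 38.9 and 44.6 CPM in FC BLA and FC CeA. The conditions did not overlap, and the difference of -0.89 ± 0.09 had an adjusted p of 0.0721. Lpin1, the phosphatidate phosphatase lipin 1 (chr12:16535669-16589770), had 8.38 and 15.8 CPM in Ext, against 29.2 and 37.7 CPM in FC, a difference of -1.54 ± 0.17 with an adjusted p of 0.122. The naive BLA library was nearer to Ext for this gene, at 15.1 CPM, while the naive CeA library was nearer to FC, at 33.4 CPM. Cntnap5c, a member of the contactin-associated cell adhesion family (chr17:57769570-58410342), had 1.95 and 0.42 CPM in Ext, against 6.13 and 1.11 CPM in FC (-1.56 ± 0.19, adjusted p 0.148). Within each region Ext was the lower of the pair, but Ext BLA was above FC CeA, since this gene is higher in BLA. Hba-a2, an alpha globin (chr11:32283675-32284493), had 57.2 and 44.3 CPM in Ext, against 119 and 146 CPM in FC (-1.38 ± 0.17, adjusted p 0.148), and shares reads with its near-identical copy Hba-a1.

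The 5 genes with the smallest p among those higher in both regions were led by Ptgds, the prostaglandin D2 synthase of meninges and oligodendrocytes (chr2:25466712-25469749). It had 111 and 71.7 CPM in Ext BLA and Ext CeA, against 55.3 and 44.5 CPM in FC, a difference of 0.85 ± 0.11 with an adjusted p of 0.174. The naive libraries, at 65.9 and 52.2 CPM, lay below Ext as well, and in S1 Ptgds rose with Ext by 0.67 on the log2 scale (adjusted p 0.0443). The 10 meningeal and fibroblast markers, Ptgds among them, summed to 174 and 133 CPM in Ext, against 111 and 115 CPM in FC. The 9 without Ptgds summed to 62.8 and 61.4 CPM in Ext, against 55.4 and 70.6 CPM in FC, so they were higher in Ext in BLA and lower in CeA.

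Dnajb6, a co-chaperone that holds back protein aggregation (chr5:29735898-29767101), had 168 and 124 CPM in Ext BLA and Ext CeA, against 104 and 77.4 CPM in FC BLA and FC CeA. The naive libraries, at 144 and 146 CPM, were nearer to Ext, so FC was the low condition for this gene. The difference was 0.69 ± 0.12 with an adjusted p of 0.412. Hspa1b, an inducible heat shock protein of the Hsp70 family (chr17:34956429-34959238), had 17.8 and 5.58 CPM in Ext, against 11.4 and 3.22 CPM in FC, and 9.73 and 2.69 CPM in naive mice, so the Ext library was the highest of the B6 libraries in each region. Its difference was 0.72 ± 0.13 with an adjusted p of 0.486. The neighbouring copy Hspa1a, nearly identical in sequence, had 17.0 and 7.17 CPM in Ext, against 12.3 and 4.65 CPM in FC (0.54 ± 0.14, adjusted p 1), and reads of the pair may have been split between them. Rsc1a1 (chr4:141683563-141685716) had 2.98 and 3.45 CPM in Ext, against 0.93 and 0.93 CPM in FC. Tmem168 (chr6:13580689-13608098) had 17.2 and 18.1 CPM in Ext, against 6.05 and 7.32 CPM in FC. The naive BLA and CeA libraries had 3.19 and 5.36 CPM of Rsc1a1 and 16.1 and 7.79 CPM of Tmem168, so FC was the lowest of the 3 conditions in each region for both genes. The differences of Rsc1a1 and Tmem168 were 1.78 ± 0.34 (adjusted p 0.490) and 1.397 ± 0.28 (adjusted p 0.538).

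**Figure D3:**
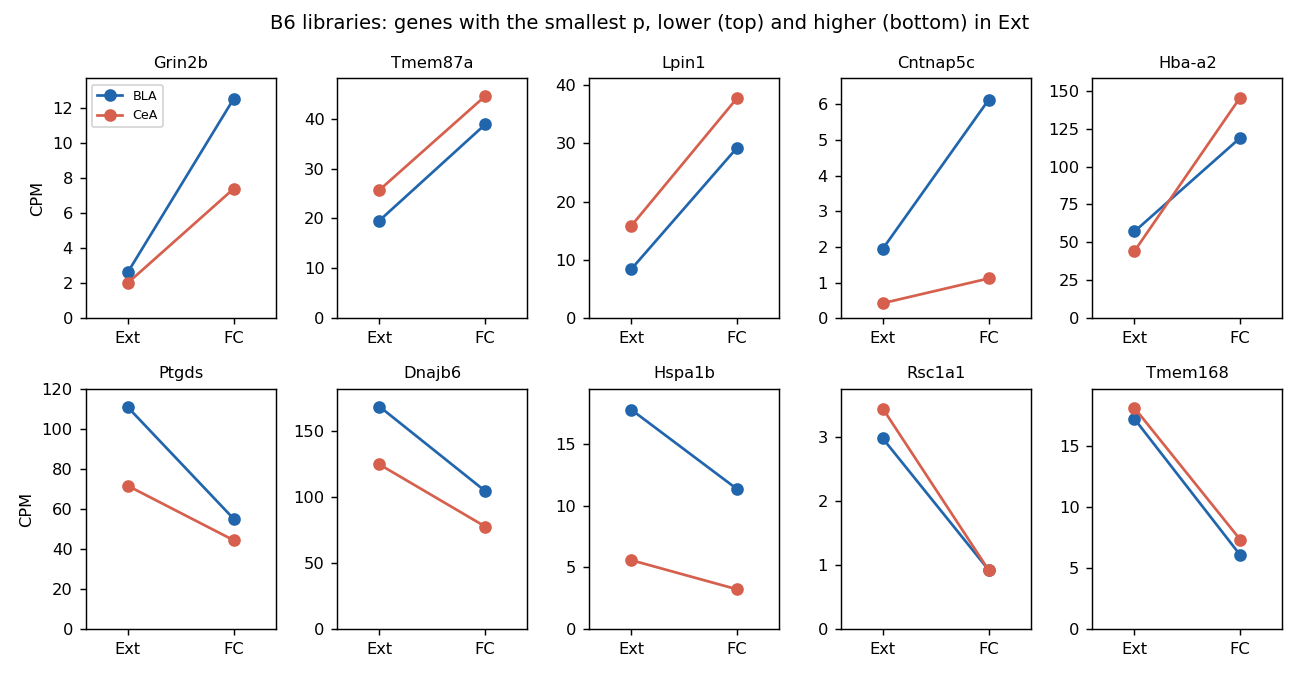
CPM (vertical, from 0) in the B6 Ext and FC libraries of BLA (blue) and CeA (red) for the 5 genes with the smallest p in each direction. Both regions move the same way in every panel because only such genes were eligible. None of the 10 was past the threshold in edgeR, the smallest adjusted p being 0.0721.

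The promoters of the 2 chaperone genes are shown because both genes were higher in Ext and both hold a heat shock element, the site bound by heat shock factors. The motif and the genes shown were chosen after their values were seen. Each is the 300-base RefSeq window on GRCm38.p6, written on the strand of the gene from 250 bases before to 50 bases after its start, with matches to GAANNTTC, read on both strands, in capitals. Hspa1b lies at chr17:34959189-34959488 on the minus strand and Dnajb6, at the more upstream of its 2 listed starts, at chr5:29735648-29735947 on the plus strand.
Hspa1b: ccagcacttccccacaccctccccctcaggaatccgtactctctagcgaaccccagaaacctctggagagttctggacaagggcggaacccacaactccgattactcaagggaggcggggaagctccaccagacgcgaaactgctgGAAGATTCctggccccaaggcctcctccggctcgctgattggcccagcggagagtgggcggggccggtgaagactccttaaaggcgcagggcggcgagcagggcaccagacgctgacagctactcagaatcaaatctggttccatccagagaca
Dnajb6: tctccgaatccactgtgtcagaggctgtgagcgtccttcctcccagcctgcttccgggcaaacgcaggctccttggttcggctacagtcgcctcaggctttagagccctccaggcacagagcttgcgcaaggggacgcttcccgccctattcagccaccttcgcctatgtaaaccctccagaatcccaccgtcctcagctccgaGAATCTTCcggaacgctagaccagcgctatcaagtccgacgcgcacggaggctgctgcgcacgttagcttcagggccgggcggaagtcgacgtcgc
The motif lies 96 bases before the start of Hspa1b and 38 bases before that of Dnajb6, and 7.86% of the 32851 promoter windows in the table, or 6% of those of tested genes, hold at least 1 match. A match describes these letters only. Of 24 heat shock and chaperone genes tested as a list, 2 (Hspa1a and Hspa1b) were higher and 0 lower at an unadjusted p under 0.05, 0 were past the threshold, and the median was 0.03 (log2), against -0.01 for all genes. Hsp90ab1 had 2112 and 1818 CPM in Ext, against 2020 and 1662 CPM in FC, and Hspa8 had 2201 and 1622 CPM in Ext, against 2223 and 1542 CPM in FC.

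Of the 29 genes at least 2-fold lower in both regions, some were nearly absent from both Ext libraries and others were only reduced there. Ino80d, a subunit of the INO80 chromatin remodeller, had 0.09 and 0.23 CPM in Ext BLA and Ext CeA, against 38.2 and 43.6 CPM in FC. Its naive libraries split, with 42.9 CPM in BLA and 1.048 CPM in CeA, so the low level was not limited to Ext. Pou2f1, the Oct-1 transcription factor, had 0.26 and 0.10 CPM in Ext, against 4.65 and 24.3 CPM in FC, and 28.8 and 0.73 CPM in naive BLA and CeA. The kinase gene Ttbk2 had 4.16 and 13.2 CPM in Ext, against 85.4 and 65.8 CPM in FC, and 98.4 and 65.8 CPM in naive mice. Gfra4, a co-receptor of the GDNF family, had 14.0 and 12.8 CPM in Ext, against 59.5 and 55.6 CPM in FC, with 55.8 and 13.1 CPM in naive BLA and CeA. Among the 4 genes at least 2-fold higher in both, Gpx1, the antioxidant glutathione peroxidase, had 81.0 and 94.1 CPM in Ext, against 19.6 and 23.9 CPM in FC. These 5 genes were named after their values were seen.

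Over the 29 genes, the naive library was nearer to Ext than to FC for 8 genes in BLA and for 11 in CeA. The same count over all genes was not made. In S1, 12 of the 29 were also at least 2-fold lower in Ext in both regions, beside 147 of all 13926 genes of at least 1 CPM. The median transcript length of the 29 was 3918 bases, against 2966 bases for all genes of at least 1 CPM. Large differences in 1 region could also rest on 1 library: Jund, an AP-1 factor, had 149 and 125 CPM in Ext BLA and Ext CeA, against 9.20 and 153 CPM in FC, and only FC BLA stood apart. Likewise Pafah1b1, a dynein regulator that also belongs to the brain enzyme inactivating platelet-activating factor, had 719 and 525 CPM in Ext, against 225 and 513 CPM in FC. Among these B6 libraries the low value was again FC BLA alone. In S1 BLA its more abundant transcript NM_013625 was low in both conditions. It had 7358 counts in S1 Ext BLA and 6785 counts in S1 FC BLA, beside 6507 counts in B6 FC BLA.

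Activity-regulated genes did not separate extinction from conditioning. Of 22 immediate early transcription factors tested, 0 were past the threshold, 1 (Nr4a1) was higher and 1 (Fosb) lower at an unadjusted p under 0.05, and the median difference was -0.04, with 4 higher and 7 lower in both regions. For comparison, 23.2% of all genes were higher and 23.7% lower in both. FC minus naive, which shares the FC libraries, had a median of 0.21 over the same 22 genes, with 10 higher and 3 lower in both regions and 0 past the threshold. Of all genes, 19.1% were higher and 20.8% lower in both regions in that comparison. The 36 activity effectors had medians of -0.03 for Ext minus FC, with 8 higher and 12 lower in both regions, and of 0.16 for FC minus naive, with 19 higher and 3 lower in both.

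Fosb, an AP-1 factor that outlasts Fos after activity, had 12.4 and 11.1 CPM in Ext BLA and Ext CeA, against 16.7 and 13.5 CPM in FC BLA and FC CeA, with 12.2 and 9.07 CPM in naive mice (Ext minus FC -0.35 ± 0.11, adjusted p 1). Within each region FC was highest of the conditions. Arc, which trims AMPA receptors from active synapses, had 60.7 and 42.7 CPM in Ext, against 66.4 and 50.8 CPM in FC, and 41.5 and 30.5 CPM in naive mice. Ext lay above naive and below FC in both regions, with an Ext minus FC difference of -0.19 ± 0.12 (adjusted p 1), and an FC minus naive difference of 0.71 ± 0.12 (adjusted p 0.777). Fos, the founding AP-1 factor, split by region: it had 10.9 CPM in Ext BLA against 17.9 CPM in FC BLA, and 10.3 CPM in Ext CeA against 9.51 CPM in FC CeA. Npas4, a neuron-specific factor that adjusts inhibitory synapses, also differed by region, with 13.0 CPM in Ext BLA against 21.9 CPM in FC BLA, but 29.0 against 29.2 CPM in CeA. Tiparp, an ADP-ribosyltransferase, had 10.2 and 16.9 CPM in Ext, against 12.8 and 21.6 CPM in FC (-0.35 ± 0.10, adjusted p 1), close to its naive 9.96 and 15.9 CPM. In S1, Tiparp fell with Ext by 0.63 on the log2 scale (adjusted p 0.0372).

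Nr4a1, an orphan nuclear receptor induced by activity, had 65.6 and 70.2 CPM in Ext BLA and Ext CeA, against 53.4 and 50.8 CPM in FC, and 46.9 and 41.1 CPM in naive mice. The Ext library was the highest in both regions, and the difference was 0.38 ± 0.10 (adjusted p 1). The promoters of Fosb (chr7:19309996-19310295, minus strand) and Nr4a1 (chr15:101266596-101266895, plus strand) are shown because these activity genes differed in opposite directions and share a motif. They too were chosen after their values were seen. The windows are as above, with the core of the cyclic AMP response element, TGACG read on both strands, in capitals.
Fosb: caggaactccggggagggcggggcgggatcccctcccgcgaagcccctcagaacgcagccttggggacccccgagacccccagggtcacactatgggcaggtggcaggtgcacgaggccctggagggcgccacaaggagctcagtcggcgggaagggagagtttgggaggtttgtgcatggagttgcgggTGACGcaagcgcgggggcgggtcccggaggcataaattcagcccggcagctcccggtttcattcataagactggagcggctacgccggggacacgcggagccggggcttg
Nr4a1: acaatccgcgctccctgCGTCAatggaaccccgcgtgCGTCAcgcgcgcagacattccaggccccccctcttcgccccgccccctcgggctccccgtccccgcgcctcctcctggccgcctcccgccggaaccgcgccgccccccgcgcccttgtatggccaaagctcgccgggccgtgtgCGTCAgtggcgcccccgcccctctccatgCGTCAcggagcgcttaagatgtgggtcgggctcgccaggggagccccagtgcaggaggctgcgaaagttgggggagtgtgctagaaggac
Fosb holds 1 match and Nr4a1 holds 4, and 20.8% of all promoter windows, or 28.5% of those of tested genes, hold at least 1. Homer1, whose short activity-induced variant competes with the long scaffold form, had 100 and 76.7 CPM in Ext, against 117 and 87.2 CPM in FC, over all its transcripts. The short variant NM_011982 had 349 and 188 counts in Ext BLA and Ext CeA, against 580 and 206 counts in FC. The long variant NM_147176 had 5360 and 3475 counts in Ext, against 3975 and 3498 counts in FC. A second long variant, NM_001284189, had 0 and 214 counts in Ext BLA and Ext CeA, against 1664 and 329 counts in FC. The long variants together had 5360 and 3689 counts in Ext, against 5639 and 3827 counts in FC, so they were somewhat lower in Ext, as the whole gene was. These counts are not scaled to library size. The Ext BLA and Ext CeA libraries held 59091734 and 50013722 counts, against 57206071 and 45117479 in FC. In BLA the reads lay differently between the long variants in Ext and FC.

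**Figure D4:**
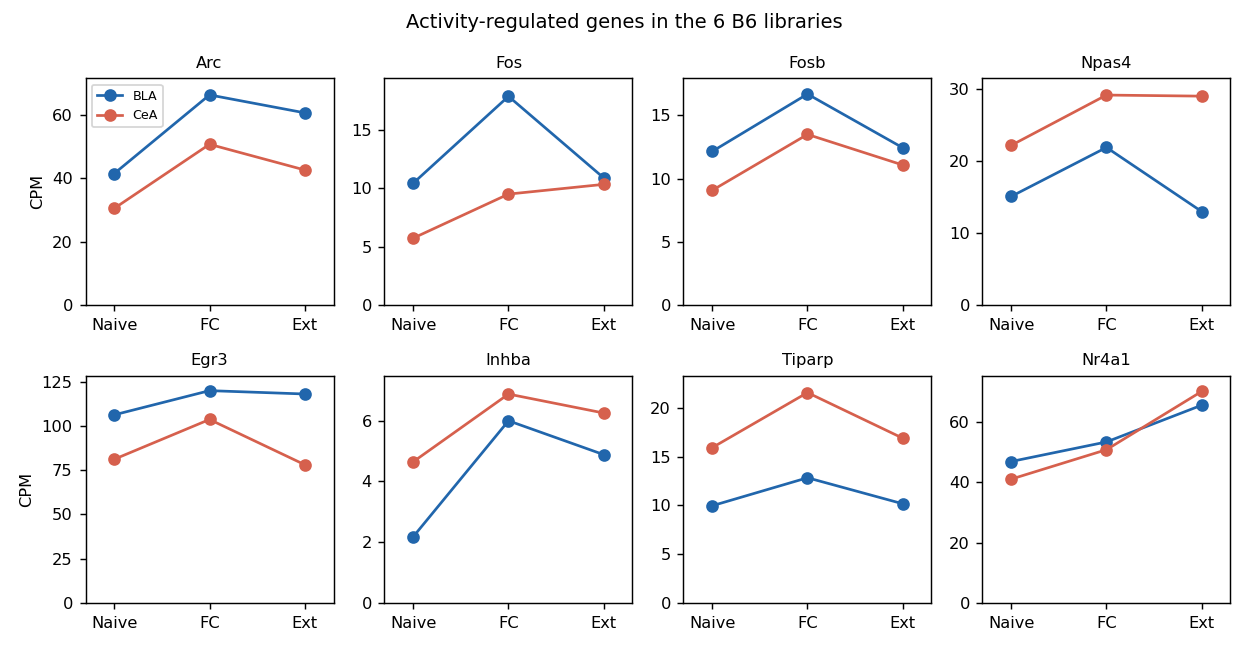
CPM (vertical, from 0) of 8 activity-regulated genes in naive, conditioned (FC) and extinguished (Ext) B6 mice, 1 library per point, BLA in blue and CeA in red. Arc, Fosb, Inhba and Tiparp are highest at FC in both regions, Fos and Npas4 are lower at Ext than at FC by a visible margin in BLA alone, and Nr4a1 is highest at Ext.

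Genes induced by glucocorticoids were mixed. Of 19 tested, 0 were past the threshold, 1 was higher and 3 were lower at an unadjusted p under 0.05, and the median of the fitted differences was 0.04, which turned to -0.03 with the length trend removed. The medians within regions were -0.05 in BLA and -0.10 in CeA, with 6 higher and 9 lower in both. Plin4, a lipid droplet coat protein, had 2.07 and 3.51 CPM in Ext BLA and Ext CeA, against 1.09 and 1.79 CPM in FC, and 0.69 and 0.57 CPM in naive mice (0.95 ± 0.27, adjusted p 1). It was highest at Ext and lowest in naive mice in both regions. In S1 the Plin4 difference was -0.94 with an adjusted p of 0.0813. Fkbp5, a co-chaperone of the glucocorticoid receptor, had 60.9 and 103 CPM in Ext, against 54.6 and 91.1 CPM in FC, and 48.0 and 75.9 CPM in naive mice, the same order. Klf9, Errfi1 and Nfkbia were lower in Ext in both regions, at -0.24, -0.24 and -0.26, each with an adjusted p of 1. The 19 clock genes had a median of -0.04, with 0 higher and 7 lower in both regions, and Per2, a repressor of the clock, had 36.9 and 44.1 CPM in Ext, against 51.8 and 48.9 CPM in FC (-0.32 ± 0.11, adjusted p 1).

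Of 28 GABA transmission genes tested, 0 were past the threshold, 0 were higher and 2 lower at an unadjusted p under 0.05, and the median change was -0.03 in BLA and 0.10 in CeA. In both regions 10 were higher and 4 lower. Gad1, the synthetic enzyme of GABA, had 468 and 830 CPM in Ext BLA and Ext CeA, against 446 and 771 CPM in FC. Slc32a1, which loads GABA into vesicles, had 99.4 and 401 CPM in Ext, against 84.7 and 324 CPM in FC (0.27 ± 0.12, adjusted p 1). Both were a little higher in Ext in each region. Gabrb1, the beta 1 subunit of the GABA-A receptor, had 8.59 and 9.07 CPM in Ext, against 15.6 and 14.7 CPM in FC (-0.77 ± 0.15, adjusted p 0.486), and fell in S1 by 1.31 (adjusted p 0.0192). Gabra2, the alpha 2 subunit that is abundant in the amygdala, had 125 CPM in Ext BLA against 195 CPM in FC BLA, but 138 against 139 CPM in CeA. Gabbr2, a subunit of the GABA-B receptor, likewise had 119 against 219 CPM in BLA and 57.8 against 48.7 CPM in CeA.

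Among 34 glutamate transmission genes, 0 were past the threshold, 0 were higher and 3 (Grin2a, Grin2b and Slc1a3) lower at an unadjusted p under 0.05. Their median change was -0.15 in BLA and 0.03 in CeA, and 12 were lower and 2 higher in both regions. Grin2a, the GluN2A subunit, had 3.07 and 1.84 CPM in Ext, against 9.85 and 2.92 CPM in FC, and 14.4 and 3.64 CPM in naive mice (-1.20 ± 0.29, adjusted p 0.931). Its order across conditions was that of Grin2b. The obligatory subunit Grin1 had 574 and 637 CPM in Ext, against 599 and 649 CPM in FC, and 661 and 556 CPM in naive mice (-0.04 ± 0.10, adjusted p 1). Camk2a, the kinase of postsynaptic potentiation, had 2458 CPM in Ext BLA against 3001 CPM in FC BLA, and 1290 against 1264 CPM in CeA. The scaffold genes Shank1 and Shank2 had BLA changes of -0.68 and -0.84, and CeA changes of 0.30 and 0.19. Slc1a3, the astrocytic glutamate transporter, had 522 and 676 CPM in Ext, against 633 and 773 CPM in FC (-0.24 ± 0.08, adjusted p 1).

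Of 40 neuropeptide and receptor genes, 0 were past the threshold, 2 were higher and 0 lower at an unadjusted p under 0.05, and the median was -0.06. Pnoc, the precursor of nociceptin, had 9.92 and 33.5 CPM in Ext BLA and Ext CeA, against 8.22 and 22.4 CPM in FC (0.43 ± 0.12, adjusted p 1). Nts, neurotensin, had 6.73 and 117 CPM in Ext, against 5.98 and 88.3 CPM in FC (0.30 ± 0.11, adjusted p 1). For both peptides the difference was greater in CeA, where the gene is more abundant. Tac2, neurokinin B, had 8.92 and 143 CPM in Ext, against 7.54 and 113 CPM in FC, and Pdyn, prodynorphin, had 19.3 and 589 CPM against 14.9 and 501 CPM. Sst, somatostatin, had 282 and 687 CPM in Ext, against 217 and 756 CPM in FC, so its regions differed in sign. Crh, the stress peptide of the CeA, had 51.9 CPM in Ext CeA against 58.5 CPM in FC CeA.

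The study's title names phospholipase A2, the enzyme family that releases fatty acids such as arachidonic acid from membrane lipids. Of 17 phospholipase A2 and platelet-activating factor genes tested, 0 were higher and 0 lower at an unadjusted p under 0.05, and the median was 0.03. Pla2g6, a calcium-independent form, had 24.9 and 20.6 CPM in Ext BLA and Ext CeA, against 26.3 and 18.8 CPM in FC. Pla2g4a, the cytosolic form that prefers arachidonate, had 2.67 and 1.82 CPM in Ext, against 2.27 and 1.87 CPM in FC, and Pla2g4e had 4.11 and 5.27 CPM against 4.96 and 4.40 CPM. Pla2g5, a secreted form, had 1.48 and 0.31 CPM in Ext, against 1.0 and 0.21 CPM in FC (0.54 ± 0.55, adjusted p 1). The more abundant Pnpla8 had 134 and 95.2 CPM in Ext, against 137 and 91.1 CPM in FC. The 14 endocannabinoid genes, whose products are made from the same lipids, had a median of -0.01 and 0 members at an unadjusted p under 0.05. Cnr1, the CB1 receptor, had 313 and 140 CPM in Ext, against 329 and 130 CPM in FC.

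Other plasticity groups had lower medians in BLA than in CeA. The medians in BLA and CeA were -0.20 and -0.06 for 22 neurotrophin and growth factor genes, -0.18 and 0.03 for 30 chromatin genes, -0.11 and -0.02 for 18 matrix genes, and -0.14 and 0.13 for 28 vesicle release genes. Bdnf, a neurotrophin that extinction needs, had 59.6 CPM in Ext BLA and 1.07 CPM in Ext CeA, against 60.2 and 2.31 CPM in FC. Bmp4, a growth factor, had 2.24 and 2.21 CPM in Ext BLA and Ext CeA, against 3.999 and 3.41 CPM in FC (-0.73 ± 0.22, adjusted p 1). Tnr, the tenascin of perineuronal nets, had 10.3 and 16.0 CPM in Ext, against 38.4 and 22.7 CPM in FC (-1.09 ± 0.44, adjusted p 1). The net proteoglycan Bcan differed little, with 317 and 315 CPM in Ext, against 295 and 345 CPM in FC. The 31 monoamine and acetylcholine receptor genes had medians of -0.08 in BLA and 0.05 in CeA, and Adra1a, an alpha 1 adrenergic receptor, had 1.92 and 3.15 CPM in Ext, against 4.13 and 3.77 CPM in FC (-0.65 ± 0.28, adjusted p 1).

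Genes with short transcripts had the reverse pattern. Of 41 ribosomal protein genes, 6 were higher and 0 lower at an unadjusted p under 0.05, 23 were higher and 0 lower in both regions, and the median was 0.18 in BLA and 0.02 in CeA. Rplp2, an acidic protein of the large subunit stalk, had 158 and 209 CPM in Ext BLA and Ext CeA, against 127 and 159 CPM in FC (0.36 ± 0.09, adjusted p 1), and it rose in S1 by 0.69 (adjusted p 0.0296). Of 40 respiratory chain genes, 1 (Ndufa1) was higher and 0 lower at an unadjusted p under 0.05, 30 were higher and 3 lower in both regions, and the medians were 0.16 in BLA and 0.06 in CeA. Ndufa1, a small subunit of complex I, had 55.6 and 47.4 CPM in Ext, against 42.6 and 32.2 CPM in FC (0.46 ± 0.16, adjusted p 1). In BLA these medians lay close to the 0.135 of all genes with transcripts of at most 1890 bases. In CeA that length group had a median of -0.03, and the medians of both lists lay above it.

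**Figure D5:**
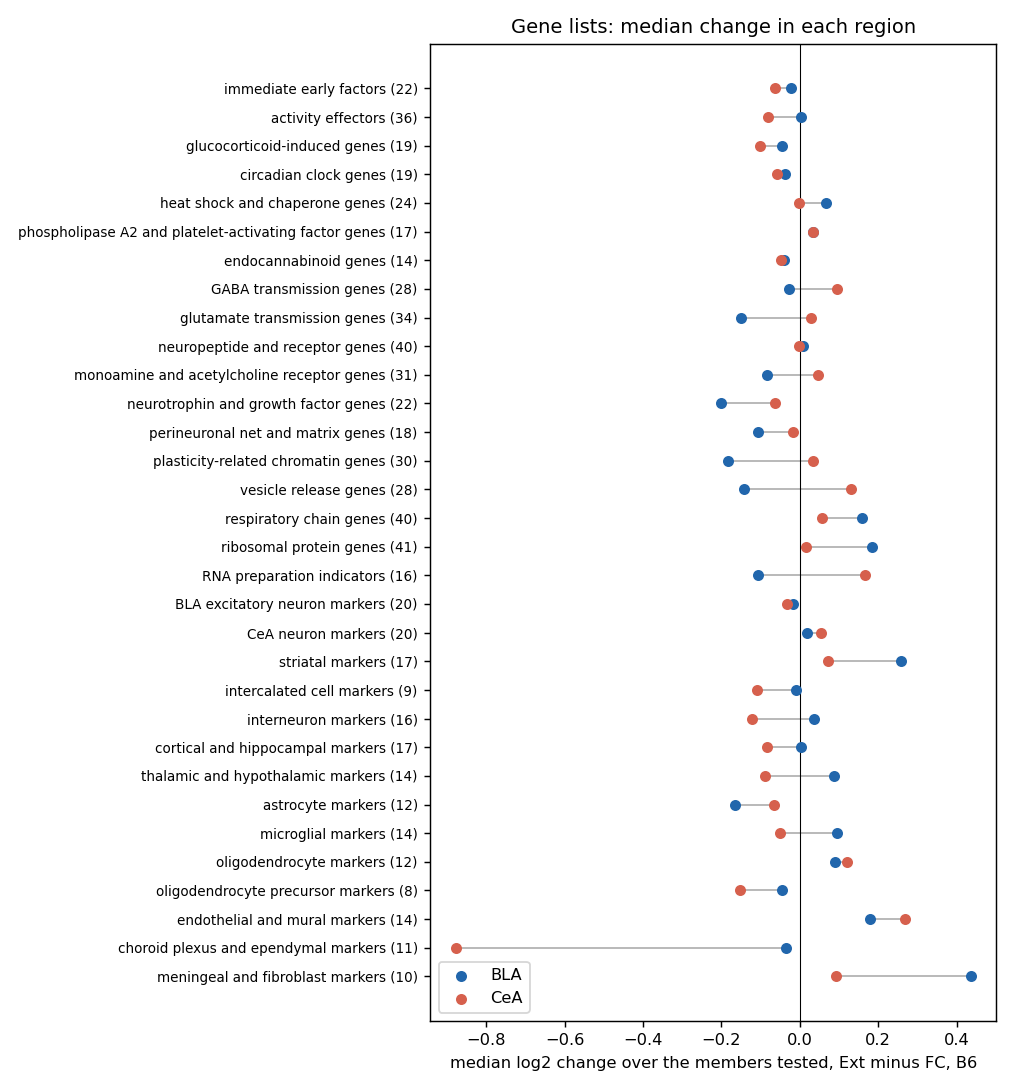
Median log2 change, Ext minus FC in B6, over the tested members (number in brackets) of 32 gene lists, for BLA (blue) and CeA (red). Synaptic, vesicle and chromatin lists lie left of 0 in BLA and at or right of 0 in CeA, and the blood and sex-linked lists are left out of the plot.

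Markers of blood were the list furthest from 0. The 9 blood markers summed to 91.5 CPM in Ext BLA and 46.1 CPM in Ext CeA, against 202 and 241 CPM in FC, and 125 and 132 CPM in naive mice. Both Ext libraries were below both naive and both FC libraries, and FC was the highest. Of the 5 members tested the median was -1.69, with 4 lower in both regions and 0 past the threshold. Alas2, the heme synthesis enzyme of red cells, had 0.88 and 0.79 CPM in Ext, against 2.35 and 3.11 CPM in FC (-1.69 ± 0.39, adjusted p 0.835). The beta globin reads were assigned differently between libraries: Hbb-bs had 1890 and 0 counts in Ext BLA and Ext CeA, against 4155 and 4162 counts in FC, while the overlapping Hbb-b1 had 6 and 1247 counts in Ext, against 4 and 4 counts in FC. Hbb-b2, at a separate position, had 917 and 599 counts in Ext, against 1772 and 1808 counts in FC. In S1 the blood markers summed to 106 and 49.99 CPM in Ext, against 87.7 and 45.8 CPM in FC. All these sums hold Hbb-bs but leave out Hbb-b1 and Hbb-b2. Hbb-b1 had 0.099 and 34.8 CPM in S1 Ext BLA and Ext CeA, against 51.3 and 29.9 CPM in S1 FC. In B6 it had 23.9 CPM in Ext CeA. The order of Ext and FC in S1 BLA therefore depends on leaving out Hbb-b1.

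Of 14 endothelial and mural markers, 5 were higher and 0 lower at an unadjusted p under 0.05, with medians of 0.18 in BLA and 0.27 in CeA, and they summed to 494 and 469 CPM in Ext, against 424 and 444 CPM in FC. Pecam1, an adhesion molecule of endothelium, had 16.7 and 17.7 CPM in Ext BLA and Ext CeA, against 12.9 and 13.8 CPM in FC, and 15.9 and 17.4 CPM in naive mice (0.36 ± 0.09, adjusted p 0.931). The naive values were thus nearer to Ext. Tagln, an actin-binding protein of smooth muscle, had 8.003 and 15.6 CPM in Ext, against 4.18 and 12.6 CPM in FC (0.62 ± 0.20, adjusted p 1). The 12 astrocyte markers had a median of -0.14, with Aqp4, the astrocytic water channel, at 74.9 and 65.2 CPM in Ext, against 99.3 and 76.9 CPM in FC (-0.32 ± 0.12, adjusted p 1). The 12 oligodendrocyte markers had a median of 0.09, with Mbp at 1916 and 1578 CPM in Ext, against 1830 and 1526 CPM in FC. The 14 microglial markers had a median of 0.00, the 8 oligodendrocyte precursor markers of -0.02, the 16 interneuron markers of -0.07 and the 17 striatal markers of 0.16. The 11 tested markers of choroid plexus and ependyma had a median of -0.50, with -0.03 in BLA and -0.88 in CeA, 1 was higher and 5 were lower in both regions, and 2 (Ccdc153 and Tmem212) were lower at an unadjusted p under 0.05. They were sparse, and the list summed to 14.1 and 74.2 CPM in Ext, against 13.3 and 84.1 CPM in FC. Ccdc153 had 0.14 and 0.81 CPM in Ext BLA and Ext CeA, against 0.22 and 4.69 CPM in FC, and Tmem212 had 0 counts in both Ext libraries, against 0.036 and 1.68 CPM in FC. Only FC CeA stood apart for these genes. Ttr, the choroid plexus transthyretin, was at 0.28 CPM in Ext BLA and 0 counts in Ext CeA, against 0.33 and 0.57 CPM in FC.

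Over all lists, 23 members were higher and 28 lower at an unadjusted p under 0.05, which is 8.08% of the 631 distinct members tested, beside 4.01% of all genes, and 0 were past the threshold. The lists were chosen with earlier results of these data known, so the share is a description. The lists not described above had medians of -0.04 (9 intercalated cell markers), 0.01 (17 cortical and hippocampal markers), -0.05 (14 thalamic and hypothalamic markers) and 0.14 (5 sex-linked genes). The 16 tested RNA preparation indicators, Rn45s among them, had a median of -0.03, with -0.11 in BLA and 0.17 in CeA, and 1 was higher and 3 were lower at an unadjusted p under 0.05. The nuclear RNA Malat1 had 213 and 151 CPM in Ext, against 366 and 216 CPM in FC (-0.66 ± 0.16, adjusted p 0.931), and the small RNA Rmrp had 0.16 and 0.096 CPM in Ext, against 0.40 and 3.85 CPM in FC (-3.74 ± 1.26, adjusted p 1). The 19 indicators without Rn45s summed to 6663 and 10712 CPM in Ext, against 8766 and 9904 CPM in FC, so the sum was lower in Ext in BLA and higher in CeA. Their part in the other differences was not tested.

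Several of the differences lay in which transcript of a gene took the reads. For Dnajb6 the shorter form NM_011847 had 7328 and 4408 counts in Ext BLA and Ext CeA, against 879 and 566 counts in FC, and 5728 and 5352 counts in naive mice. The longer form NM_001037940 ran the other way, with 2001 and 1607 counts in Ext, against 3927 and 2612 counts in FC. For Tmem87a, NM_001110496 had 372 and 643 counts in Ext, against 961 and 1817 counts in FC, while NM_173734 had 309 and 524 counts in Ext, against 461 and 135 counts in FC, and NM_001110497 had 455 and 174 counts in Ext, against 716 and 166 counts in FC. For Lpin1, NM_172950 had 227 and 441 counts in Ext, against 1050 and 1590 counts in FC, and NM_015763 had 259 and 383 counts in Ext, against 552 and 201 counts in FC. In BLA every transcript given here for Tmem87a and Lpin1 had fewer counts in Ext. In CeA NM_001110496 and NM_172950 had fewer counts in Ext and NM_173734 and NM_015763 more, while NM_001110497 differed little. These counts are not scaled to library size, and Ext CeA held 50013722 counts, against 45117479 in FC CeA. How far the assignment of reads to overlapping transcripts accounts for this was not tested.

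The difference between the strains asks which extinction differences are larger or smaller in B6 than in S1, in mice whose libraries cross the same tables. Ext minus FC had 187 genes past the threshold in S1 (1.13%), of which 44 rose (0.266%) and 143 fell (0.865%). The test of the difference between strains, B6 minus S1, had 0 calls (0%) in edgeR, with 748 genes (4.53%) at an unadjusted p under 0.05, 437 higher (2.64%) and 311 lower (1.88%), while DESeq2 called 9 higher and 4 lower. Dnajb6 had the smallest p: its change was 0.69 and 0.68 in B6 BLA and CeA, against -0.62 and -0.57 in S1, a difference of 1.28 ± 0.17 with an adjusted p of 0.851. Ext was thus higher than FC in both B6 regions and lower in both S1 regions. The S1 change also lay in which transcript took the reads. There NM_011847 had 556 and 286 counts in Ext BLA and Ext CeA, against 5402 and 4343 counts in FC. NM_001037940 had 4790 and 3814 counts in Ext of S1, against 1222 and 1466 counts in FC. Rsc1a1 was also higher in Ext in B6 and lower in S1, with 1.59 and 1.79 in B6 against -0.82 and -1.07 in S1 (difference 2.73 ± 0.46, adjusted p 0.851). Tmem245, a membrane protein, was lower in Ext in both strains, with changes of -1.29 and -0.38 in B6 against -2.70 and -3.29 in S1 (2.22 ± 0.34, adjusted p 0.851).

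In the other direction, Tmem87a had changes of -0.98 and -0.79 in B6 BLA and CeA, against -0.04 and -0.14 in S1 (difference -0.80 ± 0.12, adjusted p 0.851). The difference in this gene was thus carried by B6. Hbb-b2, a beta globin, had -1.02 and -1.72 in B6 against 0.59 and 0.12 in S1 (-1.71 ± 0.27, adjusted p 0.851). Ptp4a1, a phosphatase of growing cells, had 0.17 and -0.18 in B6 against 1.08 and 0.94 in S1 (-1.01 ± 0.17, adjusted p 0.851), and it rose in S1 (adjusted p 0.0268), although the difference between strains was not past the threshold.

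Between the regions, BLA minus CeA over both strains, 3 genes (0.0182%) were past the threshold, 2 higher (0.0121%) and 1 lower (0.00605%), and 848 (5.13%) had an unadjusted p under 0.05, 374 higher (2.26%) and 474 lower (2.87%). With no filter on low counts 0 were past it. Sdccag3, an endosomal protein, had 106 and 52.7 CPM in Ext BLA and Ext CeA of B6, against 56.0 and 104 CPM in FC, so its regions exchanged levels. Its change was 0.92 and -0.98 in B6 BLA and CeA, and 0.84 and -0.82 in S1 (difference 1.78 ± 0.12, adjusted p 0.0298). B4galt2, a galactosyltransferase of the Golgi, had 89.6 and 35.1 CPM in Ext of B6, against 50.3 and 66.2 CPM in FC (1.64 ± 0.12, adjusted p 0.0298). Its naive libraries, at 92.0 and 34.3 CPM, had the Ext arrangement. The B4galt2 reads also moved between transcripts. In B6 NM_017377 had 5188 and 1096 counts in Ext BLA and Ext CeA, against 1608 and 3136 counts in FC. NR_045570 had 5 and 15 counts in Ext, against 1161 and 2 counts in FC. NM_001253381 had 0 and 718 counts in Ext, against 0 and 7 counts in FC. Nsg2, a neuronal endosomal protein that binds AMPA receptors, had 287 CPM in Ext BLA and 1079 CPM in Ext CeA, against 806 and 1043 CPM in FC (-1.51 ± 0.09, adjusted p 0.0298), and only Ext BLA stood apart in B6, as it did in S1 with 314 CPM against 777 CPM in FC BLA. This test was run over both strains, because B6 alone has 1 pair per region.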

How the data were processed

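Whole-tissue RNA of each library was made into stranded mRNA libraries, per the labels' protocols. The authors deposited whole-number read counts per transcript and FPKM per gene, on mm10 per the files, and StringTie is named in the submitters' processing notes. The aligner was not given in the sources used here, nor was the strand setting of the counting, so reads of overlapping or antisense genes and of near-identical copies may be shared. Transcript lengths are as in the deposited tables. 1 count column that matched no sample was not used.

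Counts were summed per gene ID over 36779 transcripts into 24531 genes, of which 16523 passed edgeR's filter on low counts. All 12 libraries entered 1 model in edgeR 4.0.16 (R 4.3.3) with strain by region and strain by condition terms (8 coefficients, 4 residual degrees of freedom), TMM factors between 0.949 and 1.06, the quasi-likelihood test and Benjamini-Hochberg adjustment. The region difference had 2 residual degrees of freedom. Changes within a region are log2(CPM + 0.1). Alternatives used DESeq2 1.42.0, limma 3.58.1 on log2 of the deposited FPKM, other filters and scalings, the length trend removed, and each library left out. The fits were tested on simulated data.

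Named genes are those of at least 1 CPM on average, predicted genes left out. For Ext minus FC in B6 they also had to differ the same way in both regions, which was not required for the strain and region differences. With too few past the threshold they were filled by smallest p to 5 in each direction (3 for the strain and region differences). From each gene list the 2 members of highest CPM may be named by rule. All other members named, among them those with an unadjusted p under 0.05, and the transcripts of Homer1 and the beta globins were chosen after their values were seen. The libraries compared and all lists were chosen with earlier results of these data known.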

Additional observations from a re-analysis of the deposited data

Results flagged for a closer look

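The change from conditioning to extinction differed between BLA and CeA past the threshold for 3 genes over both strains in edgeR: Sdccag3 by 1.78, B4galt2 by 1.64 and Nsg2 by -1.51 (log2, BLA minus CeA, adjusted p 0.0298 each).

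Among the genes named by rule for the 3 comparisons, 3 had Ext on opposite sides of FC in the strains, in both regions. The same count over all genes was not made. The B6 minus S1 difference was 1.28 for Dnajb6, 2.73 for Rsc1a1 and -1.71 for Hbb-b2, and none was past the threshold in edgeR (adjusted p 0.851 each).

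The Spearman correlation of the Ext minus FC change with transcript length was -0.518 in B6 BLA and 0.155 in B6 CeA, across genes. The difference between these was not tested.

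The blood marker sum had a log2 ratio of Ext over FC of -1.14 in B6 BLA and -2.39 in B6 CeA, and of 0.271 in S1 BLA and 0.126 in S1 CeA. This difference between strains was not tested. The sum leaves out Hbb-b1, which had 0.099 CPM in S1 Ext BLA, 51.3 CPM in S1 FC BLA and 23.9 CPM in B6 Ext CeA. The sign in S1 BLA and the size in B6 CeA depend on that choice.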

How the results depend on the processing

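Extinction and table cannot be told apart, and each group is 1 library per region, so no comparison here has a replicate of its own. No paired analysis was possible because every library carries only replicate number 1, so the groups share fewer than 2 numbers; region is a term of the fit.

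The count of Ext minus FC calls in B6 was 0 in edgeR, and was 9 higher and 38 lower in DESeq2, 1 higher and 3 lower with the 4 libraries alone, and 0 higher and 3 lower (Hba-a2, Grin2b and Tmem87a) with the length trend removed. It stayed 0 with another scaling, with no filter on low counts, without Rn45s and with limma on FPKM. With 1 library left out it ran between 0 and 4 higher (4 without B6 Ext BLA) and between 0 and 52 lower (52 without B6 Ext CeA). List members past the threshold were 7 in DESeq2, 1 with the 4 libraries alone, 2 with the length trend removed, and 0 to 4 with 1 library left out.

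The difference between strains had 9 higher and 4 lower in DESeq2, 1 and 1 with its 8 libraries alone, and 0 to 6 higher and 0 to 9 lower with 1 library left out, the highest without B6 Ext BLA. The difference between regions, 2 higher and 1 lower in edgeR, had 7 higher and 10 lower in DESeq2, 2 and 2 with limma on log2(FPKM + 1), 0 and 0 with limma on log2(FPKM + 0.1), 0 and 0 with no filter on low counts, and 1 to 23 higher and 1 to 66 lower with 1 library left out, the highest without S1 Ext BLA. The cause of these changes was not tested. Of the values of named genes under the alternatives, 386 kept direction and side of the threshold, 49 came past it, 15 lost it and 0 changed sign.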
